A study of Mus musculus with 17 samples.

Results

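The 10 genes described here are the core of the mammalian circadian clock, taken by name from the 78239 gene identifiers of one table of islet RNA and the 73212 of a second. All 10 were found in both tables and all 10 passed the filter on low counts in both. The first table holds 12 islet libraries of male mice on a C57BL6/N background. Each library is called a mouse here, though the sources used do not say whether it holds a single mouse or a pool. Wildtype mice and littermates homozygous for a knock-in at the mouse position matching the human PAX4 R192H variant (*Pax4* R192H), 3 of each, were 12 weeks old on a standard chow diet (SCD). A further 3 wildtype and 3 *Pax4* R192H mice were 16 weeks old and had been on a high-fat diet (HFD) for 4 weeks, so that diet and age changed together. The second table holds islets of 20-week-old male mice after 8 weeks of HFD, 2 of them controls with floxed *Pax4* and no Cre and 3 of them *Pax4* βiKO mice, in which a tamoxifen-activated Cre driven by *Pdx1* removes floxed *Pax4*. Controls were given tamoxifen too, and the presence of Cre differed between the groups along with the loss of *Pax4*. The background strain of these mice is not given in the sources used. The tables were scaled separately and no test runs across them. Levels are CPM of the TMM-scaled library, from libraries of 24268157 to 42679645 counts.

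The clock is a feedback loop that turns about once a day in nearly every cell, islet β cells included. BMAL1 and CLOCK pair and bind E-boxes in DNA to switch on the Period and Cryptochrome genes, whose proteins return to the nucleus and block the pair. A second loop runs through REV-ERBα and REV-ERBβ, which repress *Arntl*, and output factors such as DBP carry the rhythm to other genes through D-boxes. In tissues with a running clock, *Arntl* peaks when *Dbp*, *Nr1d1* and the Period genes are low, so a single sample gives the state at the hour it was taken. The mice were housed under a light-dark cycle, but the hour at which their islets were taken is not given in the sources used here, and a difference in hour between mice or groups was not tested.

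The activators are *Arntl*, which encodes BMAL1 (ENSMUSG00000055116, chr7:113207465-113314126, plus strand), and *Clock*, which encodes its partner (ENSMUSG00000029238, chr5:76209868-76304792, minus strand). The Period repressors are *Per1* (ENSMUSG00000020893, chr11:69095217-69109960, plus strand), *Per2* (ENSMUSG00000055866, chr1:91415982-91459324, minus strand) and *Per3* (ENSMUSG00000028957, chr4:151003652-151044665, minus strand), and the Cryptochrome repressors are *Cry1* (ENSMUSG00000020038, chr10:85131700-85185064, minus strand) and *Cry2* (ENSMUSG00000068742, chr2:92403646-92434043, minus strand). *Nr1d1* (ENSMUSG00000020889, chr11:98767932-98775333, minus strand) encodes REV-ERBα and *Nr1d2* (ENSMUSG00000021775, chr14:18204054-18239127, minus strand) encodes REV-ERBβ, both of them nuclear receptors that bind haem. *Dbp* (ENSMUSG00000059824, chr7:45705088-45710203, plus strand) encodes a transcription factor of the PAR-bZIP family and is a direct output of BMAL1 and CLOCK. Positions are those of GENCODE M21 on GRCm38, the assembly behind mm10. *Nr1d1* overlaps *Thra*, *Dbp* overlaps *Sphk2*, *Cry2* overlaps *D930015M05Rik* and *Arntl* overlaps *Gm45355* on the opposite strand. The library kit keeps strand, but whether the counting used it is not stated, so reads of these pairs may not be told apart. *Per3* shares its strand with the overlapping *Camta1*, and *Clock* with *Ube2n-ps1*, a processed pseudogene, and *Gm43658*, an unverified transcript, which makes their counts uncertain where exons coincide.

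Stretches of DNA around the start sites that hold a full clock motif are given here, because the loop is described by such motifs. RefSeq promoter windows on GRCm38.p6, from 250 bases before to 50 bases after a start site, were found for 9 of the 10 genes (none for *Per2*). An E-box, CACGTG, which reads the same on both strands, lay in the windows of 2 of the 9, *Per1* and *Cry1*, and in 8.09% of the 27025 genes with a window. A D-box, TTATGTAA or TTACGTAA on either strand, lay in 1 of the 9, *Per3*, which held 2 copies, and in 1.23% of all genes. The element read by ROR and REV-ERB factors, the ROR element, searched on either strand, lay in 1 of the 9, *Arntl*, and in 0.259% of all genes. Capitals mark the motif, and each line runs 5′ to 3′ along the gene's own strand.
Per3, chr4:151044802-151044884, minus strand: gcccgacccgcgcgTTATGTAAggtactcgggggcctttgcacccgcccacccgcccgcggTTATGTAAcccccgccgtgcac
Per1, chr11:69098761-69098810, plus strand: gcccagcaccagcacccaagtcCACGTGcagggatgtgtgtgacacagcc
Cry1, chr10:85185087-85185136, minus strand: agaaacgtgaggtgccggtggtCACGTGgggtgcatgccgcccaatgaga
Arntl, chr7:113207528-113207557, plus strand: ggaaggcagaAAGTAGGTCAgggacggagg
Tef, chr15:81802524-81802573, plus strand: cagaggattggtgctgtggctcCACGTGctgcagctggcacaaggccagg
Bhlhe41, chr6:145865546-145865595, minus strand: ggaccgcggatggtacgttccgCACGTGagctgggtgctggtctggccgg
In *Per3*, the D-boxes began 205 and 158 bases before the start site. The E-box began 166 bases before 1 of the 2 start sites of *Per1*, the other window holding none, and before the start site it began 60 bases in *Cry1*, 127 in the *Tef* window shown and 153 in *Bhlhe41*, and the *Arntl* element began 27 bases after one of its start sites. *Tef*, a PAR-bZIP relative of *Dbp*, and *Bhlhe41*, which encodes the repressor DEC2, are shown because they passed the test in HFD-fed *Pax4* R192H islets. Of 15 partner genes with a window, 3 held an E-box, the other being *Ciart* with 3 copies, which did not pass the test there. *Tef* has a further window with an E-box that began 138 bases before its start site. No motif was found in the windows of *Clock*, *Cry2*, *Nr1d1*, *Nr1d2* or *Dbp*, which says only that these letters are not in those windows.

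Per length of exon, *Nr1d2* and *Clock* had the highest levels of the 10 genes in the first table, with means of 8.02 and 7.77 CPM per kb over 12 mice. *Nr1d2* was above *Clock* in 5 of the 12, so their order is not fixed. *Cry2* (4.02), *Cry1* (3.77), *Dbp* (3.02) and *Arntl* (2.13 CPM per kb) followed, and *Cry2* exceeded *Cry1* in only 4 of the 12 mice. *Per2* (1.70), *Per1* (1.41), *Nr1d1* (0.934) and *Per3* (0.445 CPM per kb) were lowest, and each of the first 3 exceeded the next in 9 to 11 mice. *Nr1d1* rested on the fewest reads, between 16 and 228 counts a mouse. In the second table *Nr1d2* was again highest, at a mean of 37.1 CPM per kb and above *Clock* (13.4) in all 5 mice. *Dbp* followed (13.2), below *Clock* in only 3 of the 5, so their order is not fixed. *Arntl* was last (1.03 CPM per kb), below *Per3* (2.05) in all 5. Differences in level between the tables come with differences in age, weeks of diet, mouse line, kind of control and library make-up, which cannot be told apart.

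Some facts of the libraries bear on all that follows. A pair of unnamed rows in the first table took between 36.2% and 53.3% of the counts of each library. In *Pax4* R192H islets they took 37.6% to 46.3% on the SCD and 49.2% to 53.3% on the HFD. TMM factors there were 1.081 to 1.298 and 0.6921 to 0.8226, and neither measure overlapped. Shares of 43.7% to 49.8% in HFD-fed wildtype islets overlapped those of HFD-fed *Pax4* R192H islets, and factors of 0.8897 to 1.106 did not. In wildtype islets both overlapped between the diets. Their part in the clock gene values was not tested beyond fits with RLE scaling or without these rows. None of the 9 β cell markers checked was at 0 in any group, but several differed between the groups compared. In HFD-fed *Pax4* R192H islets, *Slc2a2*, *Mafa*, *Ucn3* and *Nkx6-1* were lower than in wildtype without overlap and *Iapp* was higher, and *Slc2a2*, the glucose transporter GLUT2, passed the test, at 258 ± 55.1 CPM (SD, n = 3) against 626 ± 119 CPM (SD, n = 3). In *Pax4* βiKO islets 5 of the 9 were lower and 2 higher than in controls without overlap, and none passed. With the HFD in *Pax4* R192H islets 3 were higher and 1 lower without overlap, and 3 of the 9 passed the test as higher and 1 as lower. With the HFD in wildtype islets *Ins1*, *Ins2* and *Ucn3* were higher without overlap, and none of the 9 passed the test. Of all genes, 9.89%, 16.7%, 20.6% and 9.46% were lower without overlap in these comparisons, in the order given. In *Pax4* βiKO islets 15.9% were higher without overlap. The part of these differences in the values of the clock genes was not tested. Acinar cell markers, 24 genes of digestive enzymes and their regulators, were higher in HFD-fed *Pax4* R192H islets for all 24 genes and passed the test for 8, and their summed level was 38303 to 104450 CPM there against 16708 to 25767 CPM in HFD-fed wildtype islets. Markers of other cells differed too. On the SCD all 7 macrophage and all 7 stromal markers, and the 3 T and B cell markers that could be tested of 5, had a lower mean in *Pax4* R192H than in wildtype islets. None passed the test, and 3 macrophage, 0 stromal and 3 T and B cell markers had unadjusted p-values below 0.05. Their summed levels there were 82.3 to 128 CPM in wildtype and 59.7 to 62.6 CPM in *Pax4* R192H islets for macrophage, 49.3 to 269 and 61.4 to 133 CPM for stromal, and 2.95 to 11.3 and 0.0763 to 0.407 CPM for T and B cell markers. With the HFD in wildtype islets, 5 of 7 stromal, 4 of 7 macrophage and 1 T and B cell marker were lower without overlap, as were 9.46% of all genes. There 1 duct marker was lower and 1 higher without overlap, and 1 macrophage marker passed. Between the genotypes on the HFD, 3 of 7 duct markers (*Krt7*, *Spp1* and *Muc1*) were higher in *Pax4* R192H islets without overlap and 1 of 6 α cell markers was lower, and none of these 4 passed. The summed duct markers there were 80.6 to 99.0 CPM in wildtype and 127 to 135 CPM in *Pax4* R192H islets. Their part in the values of the clock genes was not tested. In bulk islets, fewer cells of a type and less RNA per cell cannot be told apart. *Pax4* had 0 counts in every library, which leaves no check of the genotype labels on that gene.

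On the SCD, 7 of the 10 clock genes had a higher and 3 a lower mean in *Pax4* R192H islets than in wildtype. None of the 10 passed the test, which asks for an adjusted p-value of edgeR's quasi-likelihood F-test under 0.05 together with a log2 fold change beyond 0.5 in either direction, and which called 0% of all 19137 genes in this comparison. None had an unadjusted p-value below 0.05, as 3.29% of all genes did, and DESeq2 called none. The log2 fold changes ran from -0.44 (*Per1*) to 0.41 (*Per3*), with a median of 0.045 against -0.004 over all genes tested. Leaving out 1 mouse gave -1.08 to -0.045 for *Per1* and 0.30 to 0.59 for *Per3*. *Per3* was 3.57, 4.05 and 5.09 CPM in the wildtype mice and 5.21, 5.42 and 6.30 CPM in the *Pax4* R192H mice. It was the 1 clock gene whose groups did not overlap, and 3.62% of all genes were higher in *Pax4* R192H without overlap. Its log2 fold change was 0.41 ± 0.33 (SE), with a 95% interval of -0.29 to 1.11. *Per1*, which light and hormones induce within the hour, was the most variable of the Period genes on this diet, at 6.74, 16.8 and 10.4 CPM in wildtype and 4.55, 6.19 and 14.5 CPM in *Pax4* R192H islets. *Clock* was the most tightly measured, with an interval of -0.23 to 0.30 for its log2 fold change.

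On the HFD, 8 of the 10 clock genes had a lower mean in *Pax4* R192H islets than in wildtype, and the 2 with a higher one were *Arntl* and *Cry1*. None passed the test, which called 2.28% of all genes here and 0.82% as lower. *Nr1d2*, *Dbp* and *Per3* had an unadjusted p-value below 0.05, as did 15.9% of all genes. DESeq2 called 1 of the 10, *Nr1d2*. The median log2 fold change of the 10 was -0.386, against -0.014 over all genes.
*Dbp*, the output gene, was 16.0, 9.07 and 12.1 CPM in the 3 wildtype mice and 6.44, 7.01 and 8.02 CPM in the 3 *Pax4* R192H mice. Every *Pax4* R192H value lay below every wildtype value, and the log2 fold change was -0.79 ± 0.27 (SE, adjusted p = 0.147). *Clock* was the other gene without overlap, at 104, 98.3 and 98.6 CPM in wildtype and 87.0, 78.3 and 86.3 CPM in *Pax4* R192H islets. Its log2 fold change was -0.26 ± 0.12 (SE, adjusted p = 0.326). Groups did not overlap, with *Pax4* R192H lower, for 9.89% of all genes.
*Nr1d2* was 65.4, 34.0 and 55.4 CPM in wildtype and 27.5, 21.8 and 39.8 CPM in *Pax4* R192H islets, and the groups overlapped because wildtype replicate 2 lay below *Pax4* R192H replicate 3. Its log2 fold change was -0.80 ± 0.27 (SE, adjusted p = 0.147). *Per3* was 7.62, 2.32 and 3.75 CPM in wildtype and 2.83, 2.48 and 2.65 CPM in *Pax4* R192H islets, so that the wildtype mice lay on both sides of the *Pax4* R192H mice, which were close together. Its log2 fold change was -0.79 ± 0.34 (SE, adjusted p = 0.263).
The activator *Arntl* was 10.5, 16.5 and 14.5 CPM in wildtype and 15.1, 17.8 and 13.7 CPM in *Pax4* R192H islets, a log2 fold change of 0.17 ± 0.19 (SE). *Cry1*, whose rhythm in many tissues runs late, with *Arntl*, was 9.86, 14.8 and 12.8 CPM and 16.2, 16.6 and 10.2 CPM, a log2 fold change of 0.20 ± 0.22 (SE). Both sets of values overlapped between the genotypes. The remaining log2 fold changes were -0.41 for *Per1*, -0.41 for *Per2*, -0.22 for *Cry2* and -0.36 for *Nr1d1*, with unadjusted p-values from edgeR of 0.115 to 0.544.

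**Figure D1:**
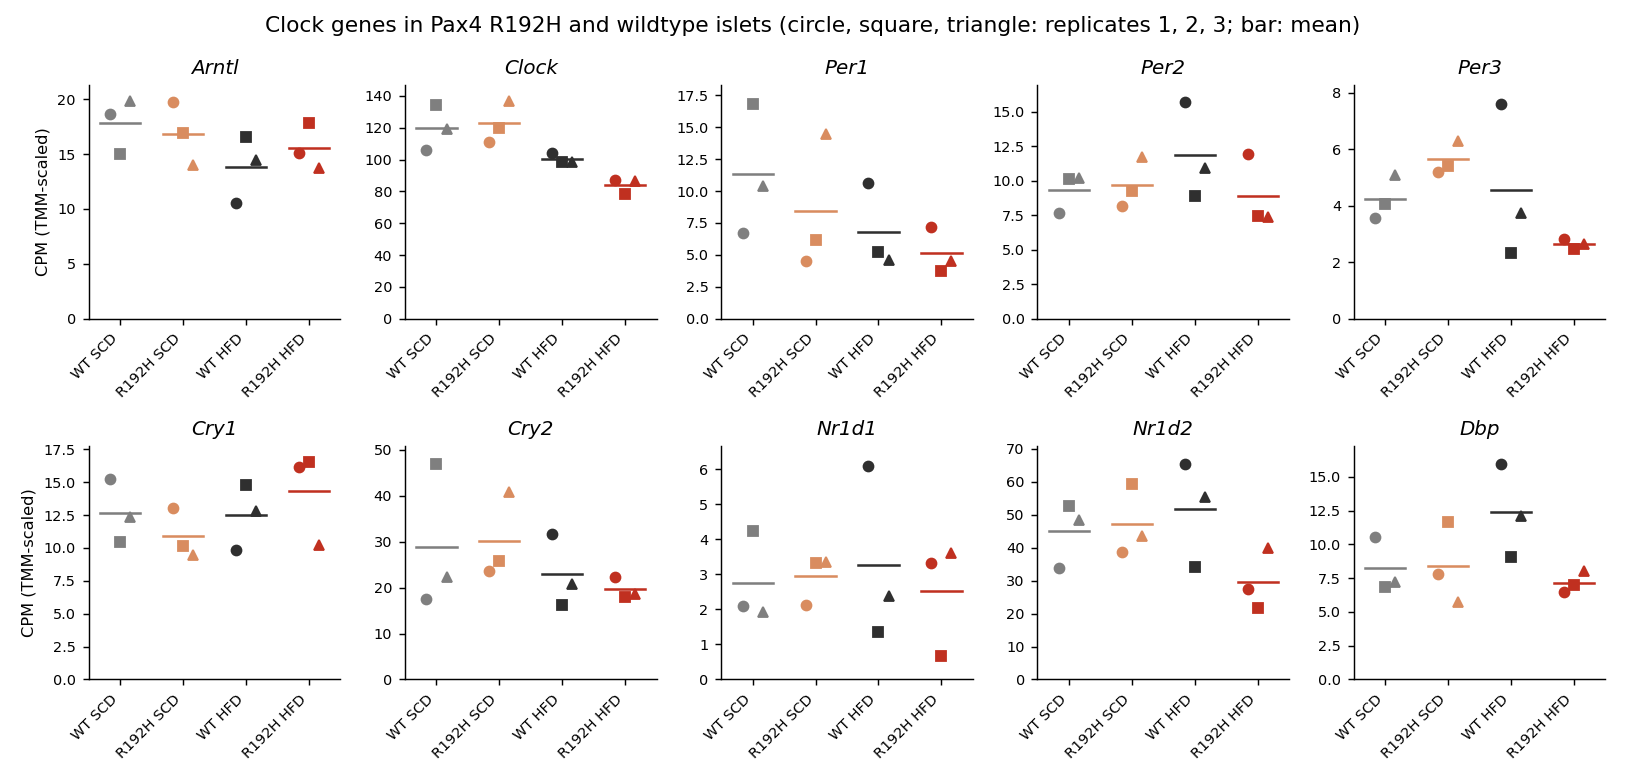
Level of each clock gene in CPM of the TMM-scaled library (vertical axes, from 0) in islets of the 4 groups of 3 mice each; points are single mice, their shapes the replicate numbers, and bars the group means. In HFD-fed wildtype islets, replicate 1 (circle) is the highest of its group for 8 of the 10 genes and the lowest for *Arntl* and *Cry1*, and the 3 HFD-fed *Pax4* R192H mice lie below all HFD-fed wildtype mice for *Clock* and *Dbp*.

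Single mice weighed on this comparison, and 1 wildtype mouse more than any other. HFD-fed wildtype replicate 1 had the highest value of its group for *Clock*, *Per1*, *Per2*, *Per3*, *Cry2*, *Nr1d1*, *Nr1d2* and *Dbp* and the lowest for *Arntl* and *Cry1*. It stood out most for *Nr1d1*, at 6.08 CPM against at most 2.37 CPM in the other wildtype mice. Without this mouse the median log2 fold change of the 10 genes was -0.08 in place of -0.39, and 5 of the 10 were lower in *Pax4* R192H. The median was -0.221 without *Pax4* R192H replicate 2 and -0.636 without *Pax4* R192H replicate 1. Without wildtype replicate 1 the value of *Per3* moved to -0.20, while that of *Dbp* was -0.57 and that of *Nr1d2* was -0.59. *Per1*, *Cry2* and *Nr1d1* turned to the other sign, at 0.06, 0.09 and 0.44.

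Of the genes that work beside the core, *Tef* and *Bhlhe41* fell in HFD-fed *Pax4* R192H islets. Among 20 tested genes of a list of clock partners (ROR receptors, PAR-bZIP factors, DEC repressors, kinases and ubiquitin ligases of the loop), 4 had a higher and 16 a lower mean, and 2 passed the test, both lower. Their median log2 fold change was -0.20, against -0.014 over all genes. *Tef* was 38.7, 17.6 and 29.98 CPM in wildtype and 13.6, 12.4 and 15.5 CPM in *Pax4* R192H islets, without overlap, and fell by 1.06 ± 0.24 on the log2 scale (SE, edgeR, adjusted p = 0.0414). *Bhlhe41* was 13.0, 7.10 and 9.43 CPM and 4.97, 4.53 and 5.86 CPM, again without overlap, and fell by 0.94 ± 0.21 (SE, edgeR, adjusted p = 0.0392). *Hlf*, the other PAR-bZIP gene, was 2.45, 0.989 and 0.990 CPM and 0.716, 1.01 and 0.617 CPM and had a log2 fold change of -0.93 ± 0.46 (SE, edgeR, adjusted p = 0.347). It was chosen for naming after its value was seen, and leaving out 1 mouse gave log2 fold changes of -1.15 to -0.35.
Both calls rested on narrow margins. Without HFD-fed wildtype replicate 1, which had the highest *Tef* and *Bhlhe41* of its group, the log2 fold changes were -0.78 (adjusted p = 0.153) and -0.69 (adjusted p = 0.146). Leaving out any other HFD-fed mouse but wildtype replicate 2 also ended both calls, with log2 fold changes of -1.31 to -0.78 for *Tef* and -1.13 to -0.69 for *Bhlhe41* over the 6 omissions. With the mean level of the acinar markers in the fit, the log2 fold changes were -0.97 for *Tef*, -0.76 for *Bhlhe41*, -0.31 for *Dbp* and -0.53 for *Nr1d2*, and neither partner gene was called. That fit called 0 of all genes, against 437 without the covariate. A model of only the 2 groups compared also ended both calls, with adjusted p-values in edgeR of 0.0618 for *Tef* and 0.0698 for *Bhlhe41*.

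Output genes and signals that reset the clock were compared from further lists, beside the 2.28% of all genes called and the 15.9% with an unadjusted p-value below 0.05 on the HFD. Among 9 genes that carry the rhythm into metabolism and the cell cycle, 5 were higher and 4 lower in HFD-fed *Pax4* R192H islets and none passed the test, with 2 unadjusted p-values below 0.05. Among 13 tested targets of glucocorticoids, hormones that rise with the active phase, 5 were higher and 8 lower and 1 passed. That gene was *Mt1*, a metallothionein that binds zinc and responds to several other signals too, at 53.5, 50.9 and 66.5 CPM in wildtype and 23.97, 28.9 and 25.9 CPM in *Pax4* R192H islets. It fell by 1.12 ± 0.14 on the log2 scale (SE, edgeR, adjusted p = 0.00243). This call was kept without any 1 mouse and lost with the acinar covariate, where the log2 fold change was -0.85 (edgeR, adjusted p = 0.393). Among 16 tested CREB and serum response genes, 5 were higher and 11 lower and none passed, with 2 unadjusted p-values below 0.05. On the SCD none of the genes of these 4 lists passed, and the unadjusted p-value was below 0.05 for 0, 2, 2 and 2 genes of the partner, output, glucocorticoid and CREB lists, against 3.29% of all genes. In *Pax4* R192H islets on that diet 11, 4, 2 and 1 of them were higher and 9, 5, 11 and 15 lower, in the same order. Their median log2 fold changes were 0.045, -0.155, -0.217 and -0.388, against -0.004 over all genes.

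The interaction asks whether the genotypes differed by another amount on the HFD than on the SCD. For 7 of the 10 clock genes it was negative, and none passed the test, which called 0.131% of all genes. *Per3*, *Nr1d2* and *Dbp* had unadjusted p-values below 0.05 in edgeR, as did 11.2% of all genes, and DESeq2 called none of the 10. For *Per3* the difference of the log2 fold changes was -1.20 ± 0.47 (SE, adjusted p = 0.349). For *Nr1d2* it was -0.86 ± 0.38 and for *Dbp* -0.83 ± 0.38. Leaving out 1 mouse moved them to -1.51 to -0.61 for *Per3*, -1.13 to -0.63 for *Nr1d2* and -1.04 to -0.50 for *Dbp*, with the *Per3* value nearest 0 without HFD-fed wildtype replicate 1 and the *Dbp* value nearest 0 without SCD-fed *Pax4* R192H replicate 2. Among the partner genes, *Tef* gave -1.13 ± 0.34 (SE, adjusted p = 0.219) and *Bhlhe41* gave -0.82 ± 0.30 (SE, adjusted p = 0.31). Of the 20 tested partner genes, 6 were positive and 14 negative, and none passed.

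In wildtype islets, HFD at 16 weeks against SCD at 12 weeks moved no clock gene past the test, which called 0.371% of all genes, and DESeq2 called none. The mean was higher for 5 genes and lower for 5, and only *Dbp* had an unadjusted p-value below 0.05 (15.2% of all genes did). *Dbp* was 10.6, 6.87 and 7.24 CPM on the SCD and 16.0, 9.07 and 12.1 CPM on the HFD, a log2 fold change of 0.59 ± 0.27 (SE, adjusted p = 0.311), with overlap between the diets. *Clock* was 106, 134 and 119 CPM on the SCD and 104, 98.3 and 98.6 CPM on the HFD, the 1 clock gene without overlap (9.46% of all genes were lower without overlap), and its log2 fold change was -0.26 ± 0.12 (SE). *Arntl* had a log2 fold change of -0.37 ± 0.19 (SE).

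In *Pax4* R192H islets, 9 of the 10 clock genes were lower on the HFD than on the SCD, and 2 passed the test, *Clock* and *Per3*. In this comparison 15.7% of all genes were called and 5.91% were called lower. Unadjusted p-values below 0.05 were found for *Clock*, *Per3* and *Nr1d2* and for 32.4% of all genes. *Clock* was 111, 120.0 and 137 CPM on the SCD and 87.0, 78.3 and 86.3 CPM on the HFD, without overlap. It fell by 0.55 ± 0.12 on the log2 scale (SE, edgeR, adjusted p = 0.00887). *Per3* was 5.21, 5.42 and 6.30 CPM on the SCD and 2.83, 2.48 and 2.65 CPM on the HFD, without overlap. It fell by 1.09 ± 0.34 (SE, edgeR, adjusted p = 0.0406).
*Cry2* was the other gene without overlap, at 23.6, 25.8 and 40.9 CPM and 22.3, 18.0 and 18.7 CPM, and its log2 fold change was -0.61 ± 0.34 (SE, adjusted p = 0.23). Of all genes, 20.6% were lower on the HFD without overlap. *Nr1d2* had a log2 fold change of -0.67 ± 0.27 (SE, adjusted p = 0.105), and *Cry1*, the 1 higher gene, 0.39 ± 0.22 (SE). That *Clock* and *Per3* passed in *Pax4* R192H and not in wildtype islets does not show that the diet effect differed, and the interaction called neither.
All 24 acinar markers were higher on the HFD in this genotype, 22 of them past the test, with a summed level of 13415 to 20166 CPM on the SCD and 38303 to 104450 CPM on the HFD. Of the 7 stromal markers, 4 (*Col1a1*, *Pdgfra*, *Dcn* and *Lum*) were lower on the HFD without overlap, and the summed level of all 7 was 61.4 to 133 CPM on the SCD and 36.0 to 56.8 CPM on the HFD. The endothelial markers *Plvap* and *Esam*, the duct marker *Krt7*, 1 macrophage marker and 2 T and B cell markers were higher without overlap, while 2 of 6 α cell markers were lower. Of all these markers 1 endothelial, 1 duct and 1 T and B cell marker passed the test as higher and 1 α cell marker as lower, and their part was not tested. Of the 9 β cell markers, 3 passed as higher and 1 as lower, and their part was not tested either. With the mean level of the acinar markers in the fit, the log2 fold changes of *Clock* and *Per3* were -0.65 and -1.24, with adjusted p-values of 0.183 and 0.333 in edgeR. Leaving out any 1 of the 6 mice ended the call of *Per3* (log2 fold changes of -1.13 to -1.002, adjusted p-values of 0.0731 to 0.13 in edgeR), and leaving out SCD replicate 3 or HFD replicate 2 also ended that of *Clock* (-0.46 and -0.50). A replicate block in the fit ended the call of *Per3* too, and not that of *Clock*.

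In *Pax4* R192H islets, *Tef*, *Bhlhe40*, *Btrc*, *Nampt*, *Tsc22d3*, *Mt1*, *Mt2* and *Fosb* fell with the HFD, against 5.91% of all genes called lower and 15.7% called in either direction. Of 20 partner genes, 3 passed the test and all 3 were lower: *Tef* fell by 0.79 ± 0.24, *Bhlhe40*, which encodes the repressor DEC1, by 1.10 ± 0.32, and *Btrc*, a ubiquitin ligase subunit that marks PER proteins for breakdown, by 0.57 ± 0.13 on the log2 scale (SE). Of 9 output genes, 7 had a higher and 2 a lower mean, and 1 passed. That was *Nampt*, the rate-limiting enzyme of NAD salvage, at 43.1, 37.7 and 32.1 CPM on the SCD and 22.4, 27.2 and 24.4 CPM on the HFD, and it fell by 0.61 ± 0.14 (SE, edgeR, adjusted p = 0.0086). Of 13 glucocorticoid targets, 3 passed, all lower: *Tsc22d3*, which encodes GILZ, fell by 0.68 ± 0.14, and the metallothioneins *Mt1* and *Mt2* fell by 1.45 ± 0.14 and 0.93 ± 0.28 (SE). Of 16 CREB and serum response genes, 1 passed, *Fosb*, an AP-1 subunit, which fell by 1.03 ± 0.31 (SE). Counts of 3 of 20, 1 of 9, 3 of 13 and 1 of 16 stand beside those shares, and no list was tested against them. With the acinar covariate none of the 8 genes was called, with adjusted p-values in edgeR from 0.0509 (*Mt1*) to 0.457 (*Tef*). Over the 8 alternative fits that kept all mice, this one among them, the log2 fold changes stayed negative. They ran from -0.83 to -0.69 for *Tef*, -1.56 to -1.10 for *Bhlhe40*, -0.60 to -0.56 for *Btrc* and -0.65 to -0.50 for *Nampt*. For *Tsc22d3* they ran from -0.72 to -0.43, for *Mt1* -1.48 to -1.14, for *Mt2* -1.17 to -0.92 and for *Fosb* -1.18 to -1.02. When each of the 6 mice was left out in turn, *Tef*, *Bhlhe40* and *Fosb* were called in 1 of the 6 fits, *Mt2* in 2, *Btrc* and *Nampt* in 5, and *Tsc22d3* and *Mt1* in all 6. The log2 fold changes of the first 4 then ran from -0.89 to -0.57 for *Tef*, -1.31 to -0.80 for *Bhlhe40*, -1.16 to -0.88 for *Fosb* and -1.11 to -0.67 for *Mt2*. Without SCD replicate 3 the value of *Btrc* was -0.48, and without SCD replicate 1 that of *Nampt* was -0.48. In wildtype islets none of the genes of these 4 lists passed for diet, and 1, 2, 5 and 6 of them had unadjusted p-values below 0.05 in edgeR, as did 15.2% of all genes.

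In islets of HFD-fed *Pax4* βiKO mice, 8 of the 10 clock genes had a lower mean than in controls, and *Arntl* and *Cry1* a higher one. None passed the test, which called 0.0893% of the 20167 genes tested, and DESeq2 called none. *Per2*, *Cry2*, *Per3* and *Arntl* had unadjusted p-values below 0.05, as did 12.8% of all genes. The median log2 fold change of the 10 was -0.275, against 0.011 over all genes. Without control replicate 1 it was -0.134, with 7 of the 10 lower, and without *Pax4* βiKO replicate 2 it was -0.412.
*Arntl* was 6.76 and 6.13 CPM in the 2 controls and 9.22, 7.98 and 8.46 CPM in the 3 *Pax4* βiKO mice. All 3 were above both controls, and the log2 fold change was 0.41 ± 0.15 (SE, adjusted p = 0.337). Among the repressors, *Per2* was 26.9 and 29.5 CPM in controls and 21.1, 23.2 and 19.2 CPM in *Pax4* βiKO islets, a log2 fold change of -0.41 ± 0.11 (SE, adjusted p = 0.257). *Per3* was 27.0 and 20.3 CPM and 14.6, 16.9 and 19.7 CPM (-0.47 ± 0.17, SE). *Cry2* was 57.0 and 56.7 CPM and 42.7, 50.5 and 36.0 CPM (-0.40 ± 0.13, SE). These 3 were lower in every *Pax4* βiKO mouse than in either control, as were 16.7% of all genes, while 15.9% were higher without overlap.
*Dbp* was 53.7 and 35.8 CPM in controls and 30.6, 37.3 and 39.6 CPM in *Pax4* βiKO islets, and *Nr1d1* was 20.6 and 12.4 CPM and 12.2, 15.1 and 7.51 CPM. In both, control replicate 1 was the highest mouse and the groups overlapped. Without that control the log2 fold change of *Dbp* was 0.003, against -0.32 with it, and control replicate 2 alone then stood for the group. Leaving out 1 mouse at a time gave -0.66 to -0.25 for *Per3*, -0.83 to -0.10 for *Nr1d1* and -0.37 to -0.045 for *Nr1d2*. Summed acinar markers were 24371 to 109960 CPM in controls and 17381 to 85229 CPM in *Pax4* βiKO islets, lower for all 24 genes and past the test for none, and their part in these values was not tested beyond the covariate fit, in which none of the 10 was called. Markers of other cells differed between these groups without overlap, with 3 of 6 endothelial and 1 of 7 stromal markers higher, 2 of 7 duct markers higher and 1 lower, and 3 of 6 α cell markers higher and 2 lower, and none of them passed the test. The summed endothelial markers were 239 to 244 CPM in controls and 259 to 302 CPM in *Pax4* βiKO islets, and the summed duct markers 208 to 210.2 and 258 to 319 CPM, and their part was not tested. None of the partner, output, glucocorticoid or CREB genes passed, with 4, 1, 6 and 2 unadjusted p-values below 0.05.

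**Figure D2:**
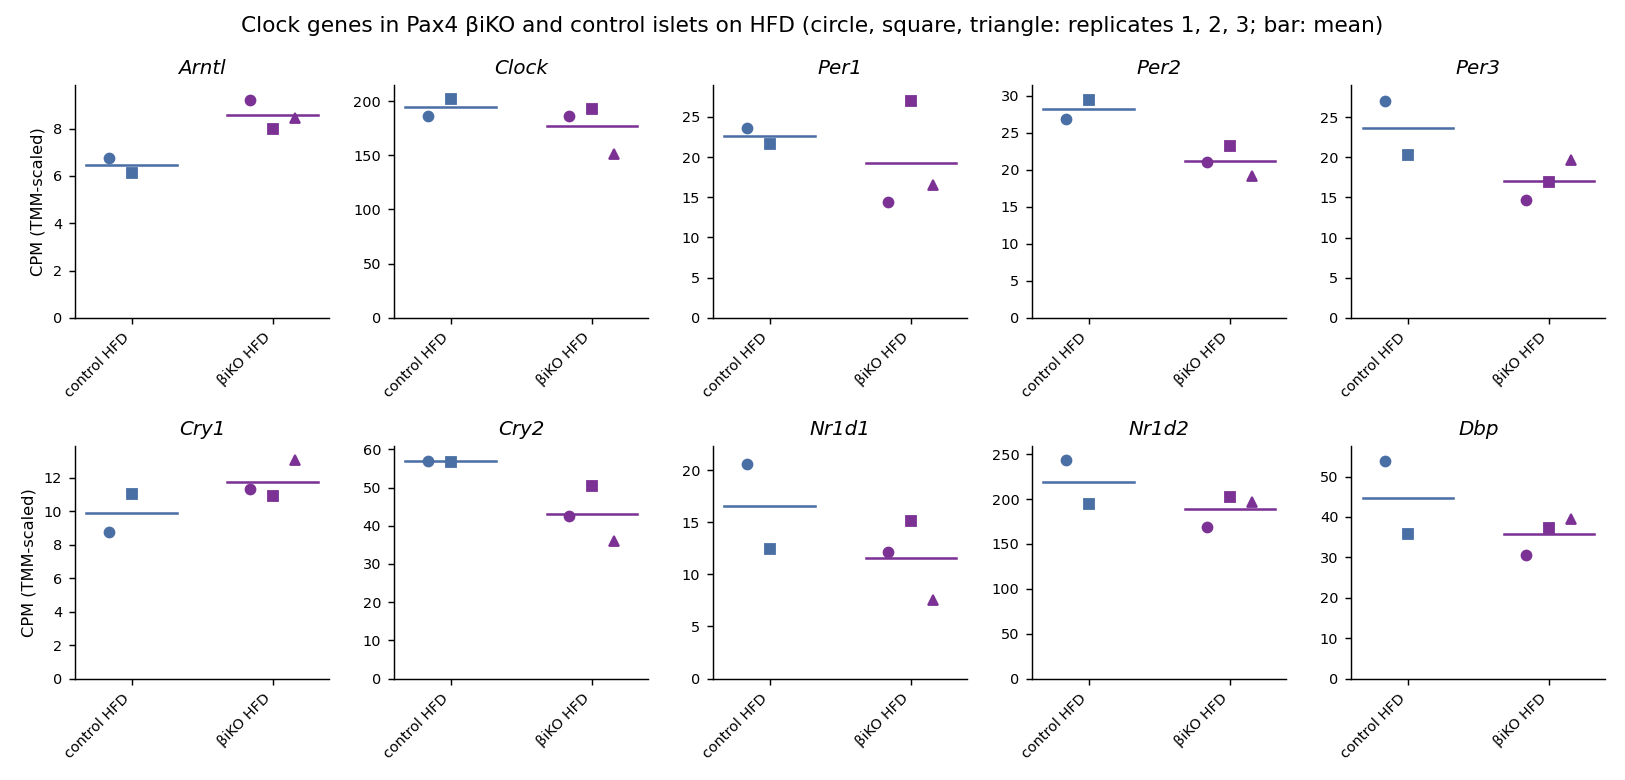
Level of each clock gene in CPM of the TMM-scaled library (vertical axes, from 0) in islets of 2 control and 3 *Pax4* βiKO mice on the HFD; points are single mice, their shapes the replicate numbers, and bars the group means. The 3 *Pax4* βiKO mice lie above both controls for *Arntl* and below both for *Per2*, *Per3* and *Cry2*, and the groups overlap for the other 6 genes.

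The R192H and βiKO comparisons on the HFD share no mice, so their directions can be set side by side. All 10 clock genes had the same sign in both: *Arntl* and *Cry1* were positive and the other 8 negative. Of the 18590 genes tested in both tables, 65.5% had the same sign. The number was 13 of 20 for partner genes and 5 of 9 for output genes, or 65% and 55.6%. The log2 fold changes were -0.79 in *Pax4* R192H and -0.32 in *Pax4* βiKO islets for *Dbp*, -0.79 and -0.47 for *Per3*, -0.80 and -0.21 for *Nr1d2*, and -0.41 and -0.41 for *Per2*. For *Clock* they were -0.26 and -0.14, for *Per1* -0.41 and -0.23, and for *Nr1d1* -0.36 and -0.51. Partner genes gave -1.06 and -0.28 for *Tef*, -0.93 and -0.29 for *Hlf* and -0.94 and -0.53 for *Bhlhe41*. These genes had the same sign in both, as did 65% of the tested partner genes and 65.5% of all genes. Other partner genes went opposite ways. Mean *Bhlhe40* was 4.96 CPM in wildtype and 2.77 CPM in *Pax4* R192H islets, but 10.97 CPM in control and 12.44 CPM in *Pax4* βiKO islets. For *Fbxw11* these means were 39.9 and 31.7 CPM, and 55.8 and 62.1 CPM.
The 10 genes are wired together and are not 10 separate observations. Leaving out HFD-fed wildtype replicate 1 left 7 of the 10 with the same sign, the exceptions being *Per1*, *Cry2* and *Nr1d1*. Leaving out control replicate 1 or HFD-fed *Pax4* R192H replicate 2 left 9, and leaving out any 1 of the other 8 mice left 10.

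**Figure D3:**
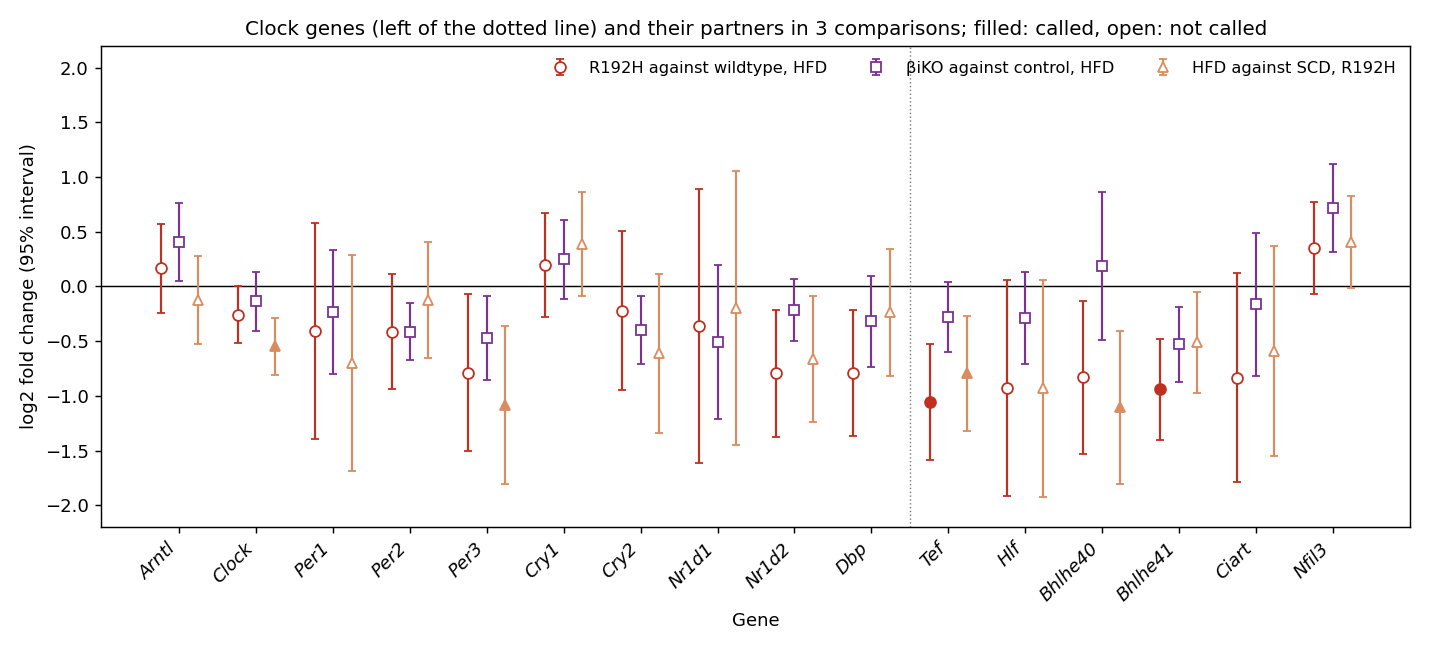
Log2 fold change with its 95% interval (vertical axis) of the 10 clock genes and 6 partner genes in *Pax4* R192H against wildtype islets on the HFD (circles), *Pax4* βiKO against control islets (squares) and HFD against SCD in *Pax4* R192H islets (triangles); filled symbols passed the test. For the 10 clock genes circles and squares lie on the same side of 0, and the filled symbols are *Clock*, *Per3*, *Tef* and *Bhlhe40* for diet and *Tef* and *Bhlhe41* for genotype.

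Ratios of 2 genes within 1 library do not depend on how the library was scaled, and the ratio of *Dbp* to *Arntl* follows output against activator. It was 0.567, 0.457 and 0.365 in SCD-fed wildtype and 0.396, 0.689 and 0.413 in SCD-fed *Pax4* R192H islets, each as a ratio of counts. On the HFD it was 1.52, 0.548 and 0.840 in wildtype and 0.428, 0.394 and 0.584 in *Pax4* R192H islets, so that the highest mouse was again wildtype replicate 1. In the second table it was 7.95 and 5.83 in controls and 3.32, 4.67 and 4.68 in *Pax4* βiKO islets, with every *Pax4* βiKO mouse below both controls. All 5 mice of the second table lay above all 12 of the first, whose highest ratio was 1.52.
In the second table the ratio of *Per3* to *Arntl* was 3.99 and 3.31 in controls and 1.59, 2.12 and 2.33 in *Pax4* βiKO islets. In the first table it was 0.191, 0.270 and 0.257 in SCD-fed wildtype and 0.264, 0.320 and 0.451 in SCD-fed *Pax4* R192H islets. On the HFD it was 0.726, 0.140 and 0.259 in wildtype and 0.188, 0.139 and 0.193 in *Pax4* R192H islets, and the genotypes overlapped. The ratio of *Nr1d2* to *Arntl* ran from 1.23 to 6.23 in the first table and was 36.0 and 31.8 in controls and 18.2, 25.3 and 23.2 in *Pax4* βiKO islets. These ratios share *Arntl* and are not separate results. *Arntl* was itself higher in every *Pax4* βiKO mouse than in either control, while *Dbp* and *Nr1d2* overlapped between these groups. The share of all gene ratios that separate these mice was not counted. The tables differ in mouse line, age, time on diet and experiment, which cannot be told apart, and the hour of sampling is given for neither.

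**Figure D4:**
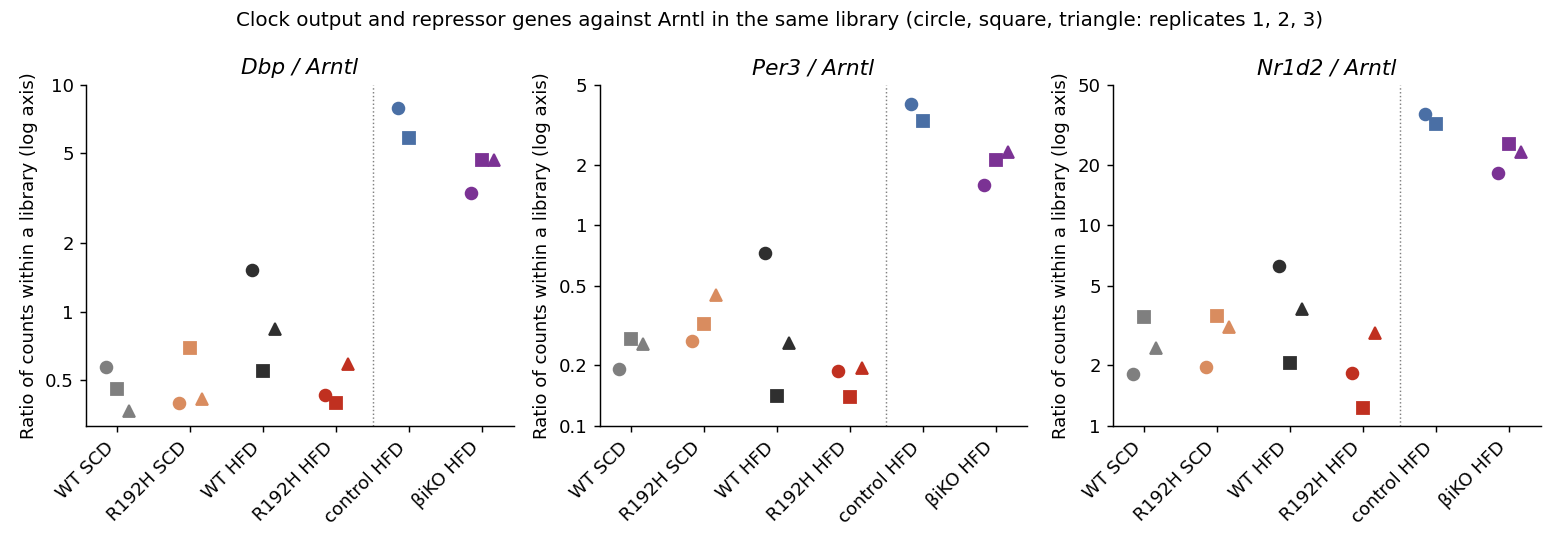
Ratio of the counts of *Dbp*, *Per3* and *Nr1d2* to those of *Arntl* within each library (vertical axes, log scale) for the 12 mice of the first table and, right of the dotted line, the 5 mice of the second. Every *Pax4* βiKO mouse lies below both controls in all 3 ratios, and all mice of the second table lie above those of the first. The 3 ratios share *Arntl*, whose own levels did not overlap between controls and *Pax4* βiKO mice.

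Across the 12 mice of the first table, the Period genes, *Cry2*, *Nr1d1* and *Nr1d2* all had positive correlations with each other, and *Cry1* had negative ones with each of them. Of the 45 pairs, 27 had a positive Pearson's r of log2 CPM, and 5 had a permutation p-value below 0.05 after adjustment over the 45. *Per1* and *Cry2*, both repressors, had r = 0.84 (adjusted permutation p = 0.0405) and Spearman's rho = 0.68 (adjusted permutation p = 0.0631). *Cry1* and *Nr1d2* had r = -0.79 (adjusted permutation p = 0.0464) and rho = -0.81 (adjusted permutation p = 0.0457). The other 3 pairs were *Cry1* with *Nr1d1* (r = -0.74, rho = -0.70), *Clock* with *Per1* (r = 0.77, rho = 0.70) and *Clock* with *Cry2* (r = 0.75, rho = 0.74). With Spearman's rho, 2 pairs passed. When the 2 mice farthest from the median of the first gene were left out, no pair passed, and the 5 pairs had r of 0.58, -0.82, -0.67, 0.62 and 0.65 in the order above.
Within the groups more pairs passed. When each value was taken as its deviation from its group mean, 16 of the 45 pairs passed an exact permutation test over the 1296 arrangements within groups. *Arntl* then went against *Nr1d1* (r = -0.86, adjusted exact permutation p = 0.0174), against *Cry2* (-0.82), *Per1* (-0.81) and *Clock* (-0.75), and with *Cry1* (0.83). *Clock* went with *Per1* (0.90) and *Cry2* (0.87), and *Per2* with *Per3* (0.77). *Dbp* took part in none of the 16 pairs, and its r with *Arntl* was -0.15. Within each diet, over 6 mice and both genotypes and with no test, the sign of *Dbp*'s r of log2 CPM differed between the diets for 8 of the 9 other clock genes, the exception being *Nr1d2*. Its r with *Arntl* was 0.45 on the SCD and -0.76 on the HFD, with *Clock* -0.68 and 0.85, with *Per3* -0.39 and 0.86, and with *Nr1d2* 0.03 and 0.92. On the HFD the levels of *Dbp* and *Clock* did not overlap between the genotypes. Wildtype replicate 1 was also the highest of its group for *Dbp*, *Clock*, *Per3* and *Nr1d2* and the lowest for *Arntl*. The part of either in these values was not tested. All values of a pair come from the same library, so its depth and make-up enter both.

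**Figure D5:**
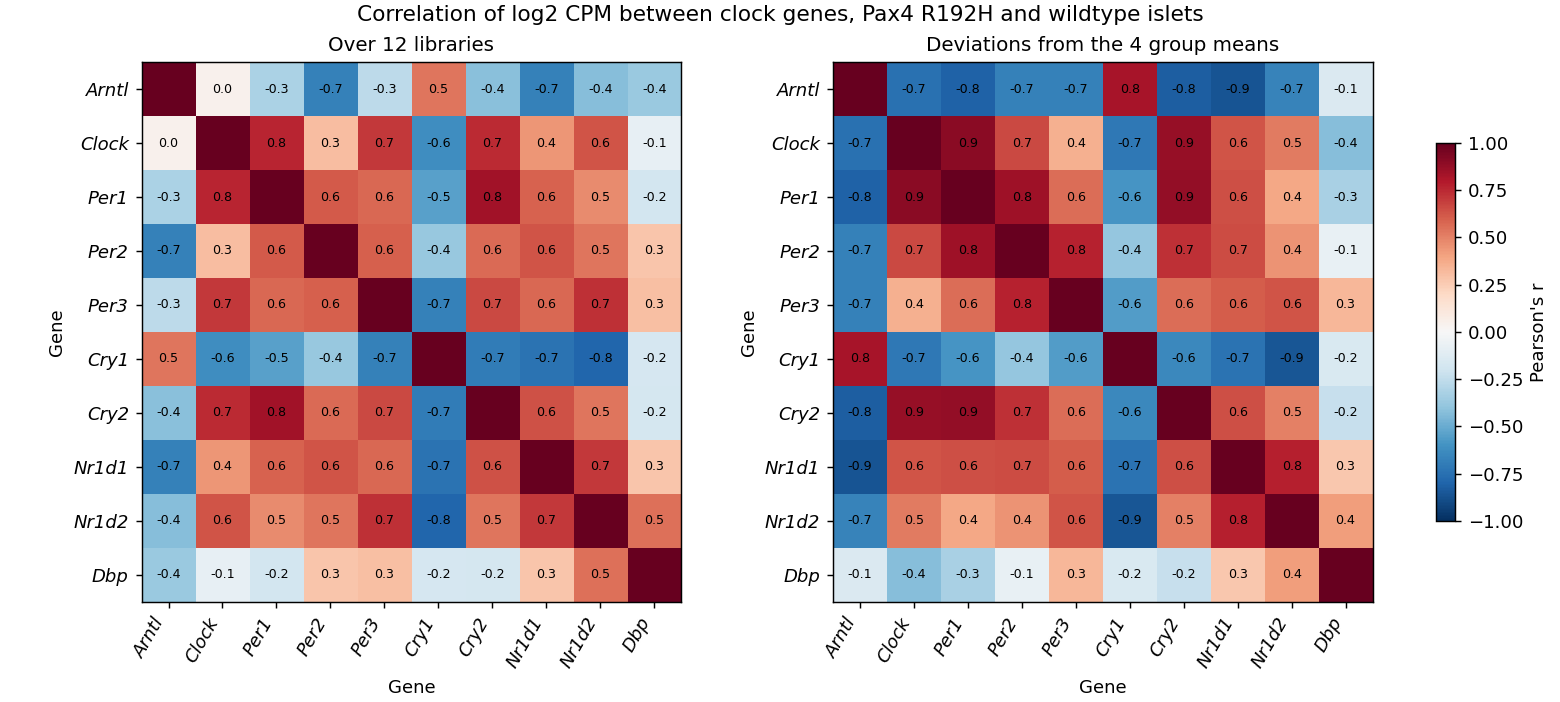
Pearson's r of log2 CPM between each pair of clock genes over the 12 mice of the first table (left) and of their deviations from the 4 group means (right), from -1 (blue) to 1 (red). *Arntl* and *Cry1* are positively related to each other and negatively to most of the other genes in the right panel, while *Dbp* has weaker relations.

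The genes whose levels were most like those of *Dbp* over the 12 mice were *Tacc1* (0.89), *Ddr1* (0.89), *Rnf220* (0.88), *Phf1* (0.87) and *Ppp1r37* (0.87), by Pearson's r of log2 CPM among 12052 named genes with a mean of at least 1 CPM. Those most like *Arntl* were *Srp19* (0.93), *Rpf1* (0.88), *Pum3* (0.87), *Trnt1* (0.87) and *Myef2* (0.86). No clock gene was among either 5, and with so many genes ranked over 12 mice these are the extremes of a long list, given as a description.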

How the data were processed

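Islet RNA of male mice was sequenced in bulk from 17 stranded total RNA libraries, each called a mouse here. The deposited values, in 2 tables, are expected counts: the authors aligned reads to mm10 with STAR 2.7.1, estimated abundances with RSEM 1.3.3 and brought them to genes with tximport, without scaling. They were rounded to whole numbers here. Each table was fitted on its own with edgeR 4.0.16 in R 4.3.3, by the quasi-likelihood F-test after TMM scaling and filterByExpr with a minimum count of 10, with 1 coefficient per group. Of 78239 and 73212 identifiers, 19137 and 20167 were tested, and p-values were adjusted over all of these (Benjamini-Hochberg). Calls needed an adjusted p-value under 0.05 with a log2 fold change beyond 0.5 either way. A prior count of 2 entered log2 CPM. Libraries held 24268157 to 42679645 counts. Correlations were tested by 100000 permutations or, within groups, by exact permutation.

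The clock genes and the lists of partner, output, glucocorticoid, CREB and serum response and cell type marker genes were chosen with earlier results of these data known. All 10 clock genes are named, with up to 4 called genes per list and comparison and the 5 genes most like *Dbp* and *Arntl*. Groups came from the sample titles, and no sample was left out. The libraries are biological replicates per the labels, which do not say whether each holds islets of a single mouse or a pool. The fits were repeated with DESeq2 1.42.0, with RLE scaling, without a filter or with 10 counts required everywhere, with a replicate block, with the mean of the acinar markers as a covariate, on the compared groups alone, without the 2 largest rows and without each mouse in turn. The fits were tested on simulated data. Promoter windows came from RefSeq on GRCm38.p6 and gene positions from GENCODE M21 on GRCm38.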

Additional observations from a re-analysis of the deposited data

Results flagged for a closer look

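The interaction of genotype and diet passed the test for 1 gene of the lists beside the clock genes. The log2 fold change of the metallothionein gene *Mt1* between *Pax4* R192H and wildtype islets was lower on the HFD than on the SCD by a difference of -1.17 ± 0.19 (SE, edgeR, adjusted p = 0.0421). On the SCD, *Mt1* was 79.3, 63.6 and 64.0 CPM in wildtype and 73.2, 70.9 and 70.3 CPM in *Pax4* R192H islets. On the HFD it was 53.5, 50.9 and 66.5 CPM in wildtype and 23.97, 28.9 and 25.9 CPM in *Pax4* R192H islets. All 3 HFD-fed *Pax4* R192H mice were below the other 9. The call was kept in only 2 of the 12 fits that left out 1 mouse, with a difference of -1.26 to -1.04 and adjusted p-values of 0.0229 to 0.121 in edgeR. It was also lost with the replicate block (adjusted p = 0.0952) and with the acinar covariate (-0.89, adjusted p = 0.658). Single outlying mice were not tested, since the groups hold 2 or 3 mice.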

How the results depend on the processing

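With no filter on low counts, 2 clock genes were called in *Pax4* R192H against wildtype islets on the HFD, 1 in the interaction, 1 in wildtype islets for diet, 5 in *Pax4* R192H islets for diet and 1 in *Pax4* βiKO islets. DESeq2 called 1 clock gene on the HFD. For diet in *Pax4* R192H islets, 0 clock genes were called with the acinar covariate and 0 to 1 when 1 mouse was left out. Leaving out 1 mouse called 0 in the other 5 comparisons. Among correlations, 16 pairs passed as deviations from group means and 0 without the 2 mice farthest from the median, against 5. The cause was not tested.

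Of the log2 fold changes followed here, which are those named in the text and not all clock genes in every comparison, 5 turned sign when 1 mouse was left out: the log2 fold changes were -0.0535 to 0.12 for *Clock* on the SCD, -0.73 to 0.0599 for *Per1*, -0.42 to 0.087 for *Cry2* and -0.72 to 0.44 for *Nr1d1* on the HFD, and up to 0.003 for *Dbp* in *Pax4* βiKO islets (lowest -0.59). Over all genes the 6 comparisons (SCD, HFD, interaction, diet in wildtype, diet in *Pax4* R192H, βiKO) called 0, 437, 25, 71, 2996 and 18. No filter gave 261, 1279, 708, 924, 3819 and 697, DESeq2 gave 23, 920, 311, 545, 3521 and 250, and the acinar covariate 0, 0, 0, 46, 74 and 13. Leaving out 1 mouse gave 0, 93 to 498, 0 to 101, 5 to 125, 1706 to 2248 and 2 to 28. Requiring 10 counts in every library gave 80 for the interaction and 115 for diet in wildtype. Models of only the groups compared gave 1 on the SCD and 1 for diet in wildtype. Apart from left-out mice, 277 alternative values of results that had not passed stayed so and 9 passed, while 88 of results that had passed did so again and 23 did not. With 1 mouse left out, 41 values of results that had passed did so again and 49 did not. Of the 10 clock genes, *Nr1d1* had the lowest count in a library of the first table, with 16 to 228 counts.

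Same-numbered mice did not deviate together (correlations of -0.30 to 0.19), so numbers were not taken as pairs. With the replicate block, 1 clock gene, *Clock*, was called for diet in *Pax4* R192H islets and *Per3* was not. All genes called then numbered 0, 147, 0, 22, 2347 and 88. The block ended the calls of *Tef* and *Bhlhe41* on the HFD (edgeR, adjusted p = 0.0911 and 0.0916). Over the 8 alternative fits that kept all mice, the block among them, the log2 fold changes were -1.07 to -0.97 for *Tef* and -0.96 to -0.76 for *Bhlhe41*.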
